A study of Mus musculus with 15 samples.

Results

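The genes described here are the potassium channel genes of cultured mouse neural stem and progenitor cells, taken as every row of the count files whose symbol starts with Kcn, apart from the long non-coding transcript Kcnq1ot1. There were 97 such genes among 26263 named genes. Levels in CPM (counts scaled by library size and TMM factors) reached a group mean of at least 1 for 50 of them, and these 50 are the described genes of the text below. The other 47 stayed below 1 CPM in every group mean, and Kcne1, Kcne3 and Kcnk16 had a count of 0 in every library. Just below the limit, Kcnk4 had a highest group mean of 0.799 CPM and Kcnab1 of 0.818 CPM. Just above it stood Kcnj14 at 1.32 CPM, Kcnn4 at 1.42 CPM and Kcnj11 at 1.52 CPM. Of the 97 genes, 61 passed the filter on low counts and were tested, all 50 described genes among them.

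RNA was counted in 15 libraries of neurospheres, free-floating cultures started from dorsal telencephalon at E12.5, and all cultures received 20 ng/ml EGF and 10 ng/ml FGF. Kat6b encodes a histone acetyltransferase. Wild-type C57BL/6 cells (WT_B6, n = 3) were set against Kat6b-/- cells on that background (KO_B6, n = 4). Tg(Kat6b) cells (Tg_FvB, n = 6) carried a Kat6b transgene on a background mixed from FVB and BALB/c, and were compared with wild-type cells of that mixture (WT_FvB, n = 2). The transgene's promoter is not given in the sources used here. Genotype and background therefore change together between the knockout and the transgenic experiment.

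Potassium channels set the resting potential of a cell and end its electrical signals. Voltage-gated channels (Kv, KCNQ and EAG families) open on depolarization, and calcium-activated channels (the SK family and Kcnma1 of the Slo family) open when calcium rises. The Slo family as grouped here also holds the sodium-activated Kcnt1. Inward rectifiers (Kir) and tandem-pore channels (K2P) carry current near rest. Accessory subunits such as the KChIP, Kv beta, KCNE and BK beta proteins change the gating or the surface level of the pore-forming subunits. Progenitors of the forebrain are known for a strongly negative, potassium-dominated resting potential, and neurons gain most voltage-gated channels as they mature.

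Several facts about the libraries bear on every value below. Totals over named genes ran from 12336303 to 62819028, and the Kcn genes together held 30222 to 136743 counts of a library. The 3 WT_B6 libraries were nearly identical to each other, as were KO_B6 replicates 2 and 3, both WT_FvB libraries and Tg_FvB replicates 1 to 3. The 7 closest pairs had a biological coefficient of variation of 0.0172 to 0.0415, against 0.115 to 0.275 for the 17 pairs of a group that were farthest apart. Even these close pairs differed by more than counting noise and were kept as separate libraries. That does not show that they come from separate embryos or cultures. KO_B6 replicates 2 (litter 843) and 3 (litter 929) were a close pair (0.0268), whereas KO_B6 replicates 1 and 2, both of litter 843, were not (0.156). The p-values rest on the spread between libraries within groups, pooled over all groups and not only the 2 compared. Calls are given again with near-identical libraries summed. Tg_FvB replicates 5 and 6 carry a wild-type heading in their count columns. On the first principal component (48.9% of variance) they lay at -0.11 and 3.04, between the B6 libraries (-42.1 to -16.4) and the other FvB libraries (24.3 to 40.5), so transgenic results are also given without them. Kat6b itself averaged 84.2 ± 0.778 CPM in WT_B6, 63.4 ± 2.22 CPM in KO_B6, 53.1 ± 1.80 CPM in WT_FvB and 242.8 ± 54.2 CPM in Tg_FvB. Tg_FvB replicates 5 and 6 had 139.6 and 288.9 CPM of it, both above the 54.4 and 51.9 CPM of WT_FvB, and the other 4 ran from 228.7 to 268 CPM. Its knockout difference did not pass the test (adjusted p = 0.057), while the transgenic one did (adjusted p = 0.00024).

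The sequences just upstream of 5 of the genes are shown first, because the largest or best supported changes below belong to 4 of them and the fifth is a neighbour of Kat6b. They are the 250 bases before the annotated start in RefSeq, build GRCm38.p6 (the assembly of mm10), 5′ to 3′ on the gene's own strand. Capitals mark the GC box GGGCGG or its reverse complement CCGCCC, the element bound by Sp family factors. Kcnc4 had the largest rise in KO_B6 (chr3:107458899-107459148, minus strand), Kcnd3 the smallest p (chr3:105451640-105451889, plus strand), and Kcnj12 and Kcnh7 the largest falls (chr11:61065554-61065803, plus strand, and chr2:63184288-63184537, minus strand). Kcnk5 (chr14:20181783-20182032, minus strand) rose as well and lies 1.32 Mb from Kat6b on chromosome 14.
Kcnc4: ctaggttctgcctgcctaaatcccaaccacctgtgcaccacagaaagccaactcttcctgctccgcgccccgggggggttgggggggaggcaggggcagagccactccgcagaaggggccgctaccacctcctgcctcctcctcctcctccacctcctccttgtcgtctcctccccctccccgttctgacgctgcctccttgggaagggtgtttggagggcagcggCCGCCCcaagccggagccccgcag
Kcnd3: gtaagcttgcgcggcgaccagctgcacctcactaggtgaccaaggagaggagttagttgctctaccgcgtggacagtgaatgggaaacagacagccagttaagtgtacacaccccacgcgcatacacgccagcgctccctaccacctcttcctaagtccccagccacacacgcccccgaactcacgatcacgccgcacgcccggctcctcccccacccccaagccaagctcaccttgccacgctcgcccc
Kcnj12: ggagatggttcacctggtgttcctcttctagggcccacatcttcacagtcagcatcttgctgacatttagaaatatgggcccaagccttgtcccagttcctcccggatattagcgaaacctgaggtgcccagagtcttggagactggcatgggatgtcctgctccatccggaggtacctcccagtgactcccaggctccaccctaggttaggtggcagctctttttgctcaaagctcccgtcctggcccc
Kcnh7: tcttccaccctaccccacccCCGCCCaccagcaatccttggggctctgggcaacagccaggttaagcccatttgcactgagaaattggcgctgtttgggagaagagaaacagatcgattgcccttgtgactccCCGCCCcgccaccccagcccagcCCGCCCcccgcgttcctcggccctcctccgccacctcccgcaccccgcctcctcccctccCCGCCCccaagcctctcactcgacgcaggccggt
Kcnk5: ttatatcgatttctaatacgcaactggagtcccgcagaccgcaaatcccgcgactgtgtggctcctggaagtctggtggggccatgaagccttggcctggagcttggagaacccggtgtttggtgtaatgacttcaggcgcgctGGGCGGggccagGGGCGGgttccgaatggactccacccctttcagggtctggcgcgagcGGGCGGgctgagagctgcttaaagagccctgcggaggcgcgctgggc
These windows hold 1 GC box for Kcnc4, 0 for Kcnd3, 0 for Kcnj12, 4 for Kcnh7 and 3 for Kcnk5, so the element stands before genes of both directions and is missing before others. CpG dinucleotides number 12, 18, 4, 16 and 19 in the same order. Over the wider windows of RefSeq promoters (from 250 bases before to 50 after the start), 71 of the 97 genes matched, with 96 windows. Of these windows 47.9% held a GC box on either strand, against 35.7% of all 32851 windows. Among described genes it was present in 14 of 22 windows (63.6%) of genes higher in KO_B6, 7 of 17 (41.2%) of genes lower and 6 of 17 (35.3%) of genes not called. The median number of CpG per window was 17.5, 12 and 7 in the same order, and 7 over all windows. A gene can have several windows, and all windows include those of genes not tested here. A link of the element to the calls was not tested. The cyclic AMP response element TGACGTCA, searched on both strands, was in 0 of 96 windows and in 1.79% of all.

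Levels were compared between genes as CPM per kilobase of the deposited gene length. Levels were uneven between genes. The 5 genes with the highest mean over the 4 groups held 42.3% of the summed level per kilobase in WT_B6 and 53.3%, 58.6% and 54.2% in KO_B6, WT_FvB and Tg_FvB. The leading gene depended on the background. Kcnip3, a calcium-binding partner of Kv4 channels also known as the transcriptional repressor DREAM, had the highest mean in WT_B6, at 46.9 ± 1.33 CPM per kilobase, and in KO_B6, at 64.2 ± 10.2 (SD). Kcna2, a Kv1 pore subunit of mature axons, had the highest in WT_FvB, at 85.8 ± 2.25, and in Tg_FvB, at 66.6 ± 23.1, but only 26.2 ± 0.323 in WT_B6. Also in WT_B6, the Kv4 pore gene Kcnd3 stood at 26.8 ± 0.566, Kcnj10, the main inward rectifier of astroglia, at 37.3 ± 0.642 and the Kv3 gene Kcnc1 at 16.8 ± 0.484. The lead lay within the sum of the SDs of the first and next gene in WT_B6 (Kcnip3 and Kcnmb4), KO_B6 (Kcnip3 and Kcna2) and Tg_FvB (Kcna2 and Kcnip3), but not in WT_FvB. In WT_B6 the neighbours Kcnj10 and Kcnd2 (36 ± 1.02) differed by less than the sum of their SDs, and so did Kcnd3 and Kcna2. The level of Kcnmb4 (44.8 ± 2 in WT_B6) rests on a deposited length of 1005 bases, whereas its exons cover 3324 bases in GENCODE vM21. Summed over all 97 genes, the level was 364 ± 3.83 CPM per kilobase in WT_B6, 403 ± 13.9 in KO_B6, 429.6 ± 7.91 in WT_FvB and 397 ± 23.6 in Tg_FvB (SD).

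**Figure D1:**
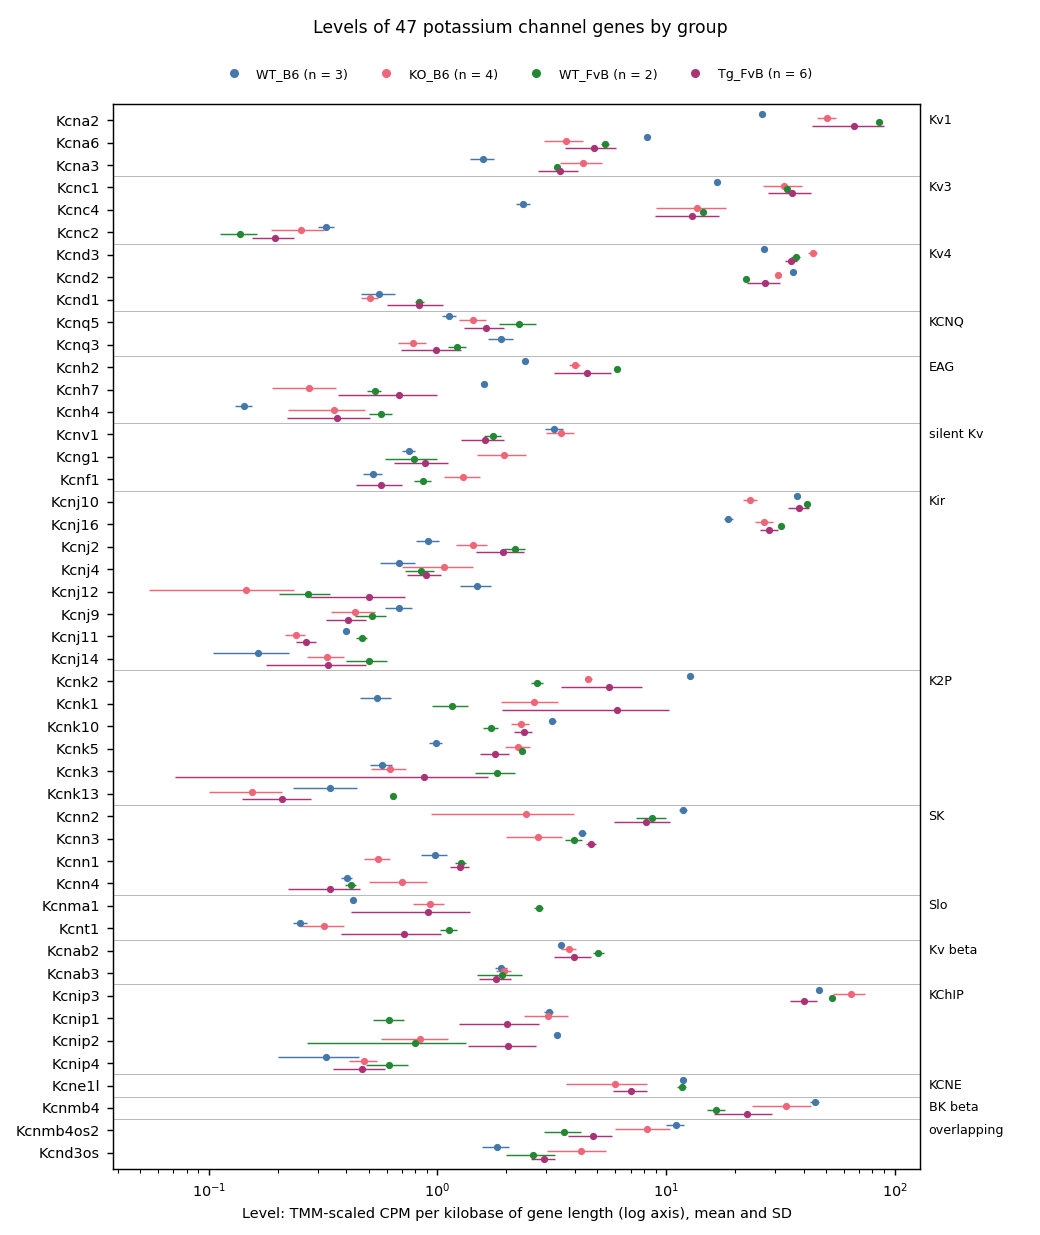
Level of 47 of the 50 described genes as CPM per kilobase on a log axis, by subfamily. Points are group means and bars the SD over 3 WT_B6, 4 KO_B6, 2 WT_FvB and 6 Tg_FvB libraries. Kcna2 is highest at the right, and Kcnj12 in KO_B6 lies near 0.145 CPM per kilobase.

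Loss of Kat6b went with changes in most of the expressed potassium channel genes, in both directions. In KO_B6 against WT_B6, 19 of the 50 described genes were higher, 15 were lower and 16 did not pass the test. The Kv3 gene Kcnc4 rose 5.76-fold, the tandem-pore gene Kcnk1 4.79-fold and the Kv1 gene Kcna3 2.78-fold. The inward rectifier Kcnj12 fell 10.5-fold, the EAG gene Kcnh7 5.73-fold and the SK gene Kcnn2 4.77-fold. The change was over 2-fold for 9 genes that rose and 9 that fell. With the 11 tested genes below 1 CPM, 35 of 61 (57.4%) were called, 20 higher and 15 lower, against 45.8% of all 15261 genes tested. The background was 24.8% higher and 20.9% lower. The median absolute log2 fold change was 0.67 over the 61 genes and 0.30 over all genes, and the signed medians were 0.10 and 0.02. The CPM of the groups did not overlap for 33 of the 50 genes (66%), against 56.3% of all genes tested.

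Adjusted p-values here and below come from edgeR's quasi-likelihood test and were adjusted after Benjamini and Hochberg over all 15261 genes. Each of the 34 called genes kept its direction when near-identical libraries were summed, but none was then called, with adjusted p from 0.0826 to 0.439 and an unadjusted p under 0.05 for 23. In both knockouts of each litter (843 and 929), 33 of the 34 lay on the same side of the wild type. The exception was Kcnk13. The 34 were called from these same libraries, so this describes the calls and is no separate support. Near-identical pairs also crossed the litters: KO_B6 replicates 2 (843) and 3 (929), and WT_B6 replicates 2 (843) and 4 (929). Of the 34, 27 were called under each of the 13 alternatives other than summed libraries. The 7 others held the call under fewer of all 14 alternatives: Kcnk13 and Kcnj9 under 9, Kcnj2 under 8, Kcnma1 under 7, Kcnj14 under 6, Kcnn4 under 5 and Kcnj4 under 1. Each of the 7 lost it with litter as a covariate and without 1 library. Over the fits that left out 1 library, the largest adjusted p was 0.103 for Kcnj2, 0.0868 for Kcnma1, 0.21 for Kcnj4, 0.0924 for Kcnj9, 0.107 for Kcnn4, 0.064 for Kcnk13 and 0.164 for Kcnj14. Losses came from leaving out WT_B6 replicate 1 for each of the 7, and from other libraries of either group for some. In the accounts by family that follow, Tg_FvB values are given as the lowest, median and highest of 6 libraries, and the knockout and transgene effects are set side by side with the test of their difference.

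**Figure D2:**
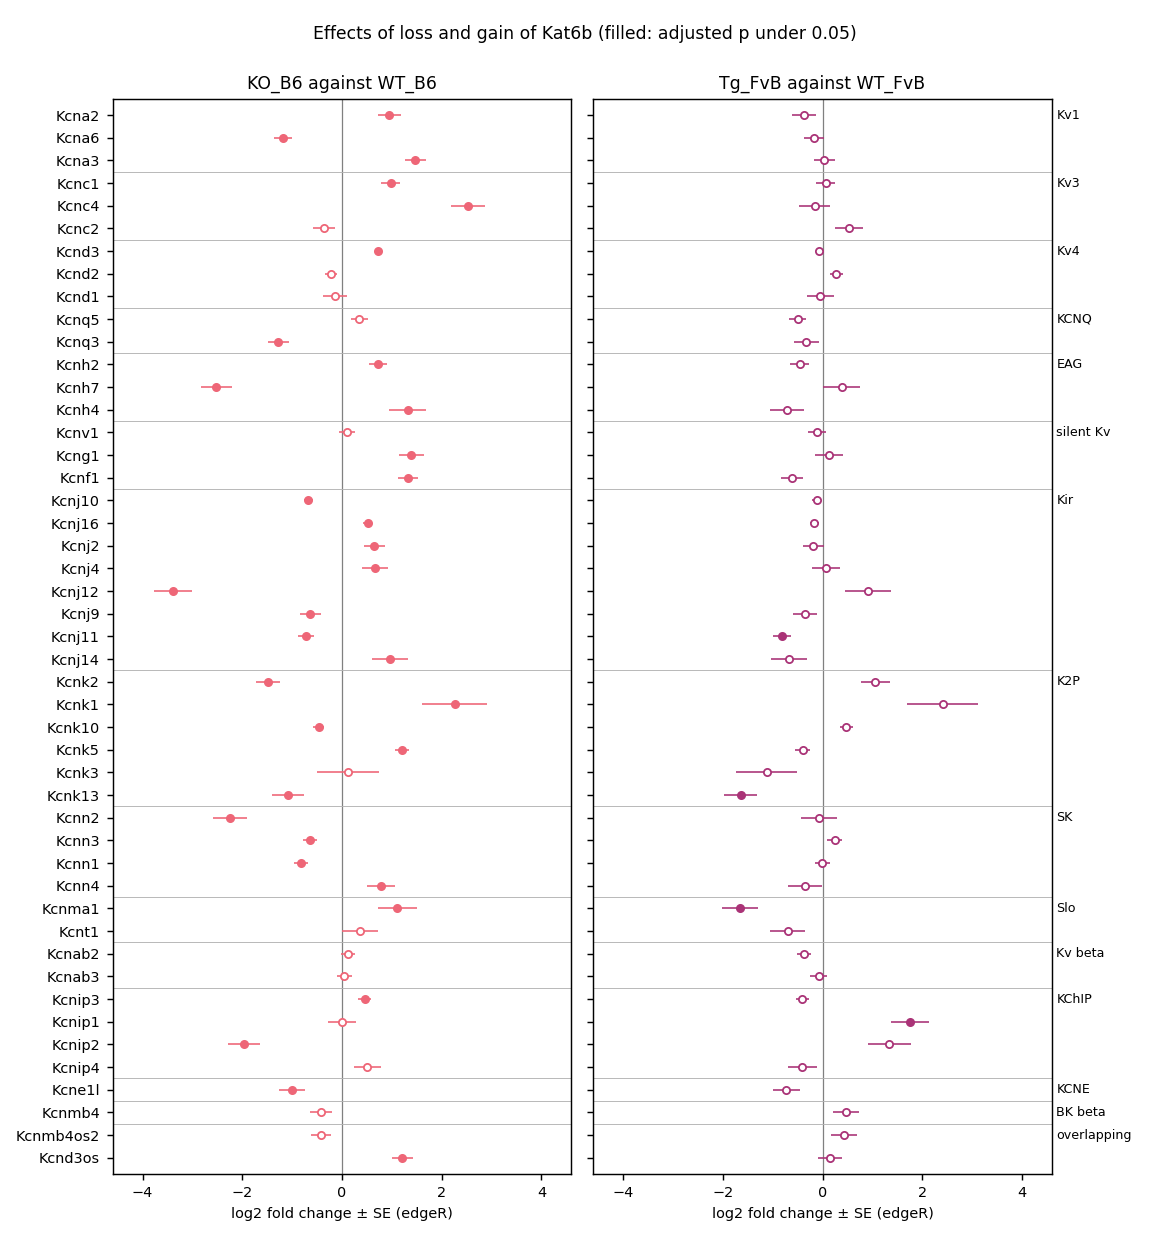
Log2 fold change ± SE of 47 of the 50 described genes in KO_B6 against WT_B6 (left) and in Tg_FvB against WT_FvB (right), ordered by subfamily. Filled points passed an adjusted p of 0.05, 34 at the left and 4 at the right. Kcnc4 lies farthest right and Kcnj12 farthest left in the knockout panel.

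Kv1 channels are delayed rectifiers that limit repetitive firing. Of the 3 described members Kcna2 and Kcna3 rose in KO_B6 and Kcna6 fell. Kcna2 had 299.5, 307 and 304 CPM in WT_B6 and 528, 582, 577 and 659 CPM in KO_B6. The groups did not overlap, and the log2 fold change was 0.95 ± 0.23 (SE), adjusted p = 0.0042. It had 1012 and 975 CPM in WT_FvB, and ran from 427 through a median of 771 to 1231 CPM in Tg_FvB. All FvB libraries lay above WT_B6, and the transgenic change did not pass the test (log2 -0.37 ± 0.24 (SE), adjusted p = 0.43). The Kv1 gene Kcna3, known from T cells and microglia as well as neurons, had 3.49, 2.77 and 3.06 CPM in WT_B6 and 6.2, 9.9, 8.12 and 10.01 CPM in KO_B6. Every knockout was above every wild type (log2 1.47 ± 0.20 (SE), adjusted p = 6.8e-05). It had 6.5 and 6.61 CPM in WT_FvB, and ran from 4.75 through a median of 7.02 to 8.71 CPM in Tg_FvB, with every FvB library above every WT_B6 library. Kcna6 had 47.7, 49.2 and 47.7 CPM in WT_B6 and 25.2, 17.8, 17.7 and 24.6 CPM in KO_B6. It was lower in every knockout (log2 -1.18 ± 0.18 (SE), adjusted p = 0.00012). Its exons overlap 2355 bases of the antisense gene Gm26673, and reads of the pair cannot be told apart without strand. In the mixed background Kcna6 had 32.6 and 30.7 CPM in WT_FvB, and ran from 23.9 through a median of 25 to 42.1 CPM in Tg_FvB. Tg_FvB replicate 5, at 42.1 CPM, stood above the other 5, which reached 28.7 CPM at most. The knockout effect differed from the transgene effect for all 3 genes, by 1.32 (adjusted p = 0.0068), 1.44 (adjusted p = 0.0019) and -1.01 (adjusted p = 0.009) on the log2 scale.

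Kv3 channels open and close fast and allow high-frequency firing in mature neurons. Kcnc1 and Kcnc4 rose in KO_B6, while Kcnc2 did not pass the test. Kcnc4 (chromosome 3) had 6.87, 7.72 and 6.83 CPM in WT_B6 and 20.3, 48.8, 46.3 and 49.1 CPM in KO_B6. The log2 fold change was 2.52 ± 0.34 (SE), adjusted p = 5.3e-05, and KO_B6 replicate 1 lay well below the other 3 knockouts though above every wild type. WT_FvB cells, with intact Kat6b, had as much as the knockouts: Kcnc4 had 43.1 and 44.5 CPM in WT_FvB, and ran from 19.7 through a median of 41.2 to 49.8 CPM in Tg_FvB. The wild types of the 2 backgrounds differed by a log2 of 2.61 ± 0.38 (SE), adjusted p = 0.00014. Kcnc1 had 163, 157 and 154 CPM in WT_B6 and 221, 351, 334 and 335 CPM in KO_B6. Replicate 1 was again the lowest knockout, and the groups did not overlap (log2 0.98 ± 0.19 (SE), adjusted p = 0.00071). It had 315 and 325 CPM in WT_FvB, and ran from 231 through a median of 374 to 392 CPM in Tg_FvB. Neither gene passed the test in Tg_FvB, with log2 fold changes of -0.16 and 0.06. The 2 effects differed for Kcnc4 by 2.68 (adjusted p = 0.00066) and for Kcnc1 by 0.91 (adjusted p = 0.014). The difference for Kcnc1 was lost without either WT_FvB library (adjusted p up to 0.062).

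Kv4 channels carry the A-type current, and the KChIP proteins, calcium sensors of the neuronal cytoplasm, are their partners. Kcnd3 rose and Kcnd2 and Kcnd1 did not pass the test. Kcnd3 had 189, 196 and 196 CPM in WT_B6 and 307, 329, 330.3 and 303 CPM in KO_B6. The groups stood far apart for their spread, with a log2 fold change of 0.71 ± 0.06 (SE), adjusted p = 3.1e-06. It had 274 and 259 CPM in WT_FvB, and ran from 228 through a median of 258 to 273 CPM in Tg_FvB, between the B6 groups. Kcnd2 had 164, 159 and 168 CPM in WT_B6 and 139, 139.5, 139 and 147 CPM in KO_B6. The groups did not overlap, yet the log2 fold change of -0.22 ± 0.12 (SE), adjusted p = 0.15, missed the threshold. It had 101 and 102 CPM in WT_FvB, and ran from 86 through a median of 126 to 144 CPM in Tg_FvB. Tg_FvB replicate 4, at 86.0 CPM, was the only transgenic library below WT_FvB. The knockout and transgene effects on Kcnd2 differed by -0.49 (adjusted p = 0.037), a call that leaving out 1 library ended in 7 of 15 cases, with libraries of all 4 groups among them (adjusted p up to 0.108). For Kcnd3 the difference was 0.78 (adjusted p = 0.00011). The antisense transcript Kcnd3os, which shares 165 exonic bases with Kcnd3, had 1.8, 1.86 and 2.29 CPM in WT_B6 and 6.62, 3.94, 4.22 and 3.73 CPM in KO_B6. It was higher in every knockout and highest in replicate 1 (log2 1.21 ± 0.21 (SE), adjusted p = 0.0004). In the mixed background Kcnd3os had 3.35 and 2.37 CPM in WT_FvB, and ran from 2.81 through a median of 3.06 to 3.7 CPM in Tg_FvB, and its effects differed by 1.06 (adjusted p = 0.016). That difference was lost without WT_FvB replicate 1 (adjusted p = 0.139).

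The 4 KChIP genes went separate ways. Kcnip3 had 156, 151 and 147 CPM in WT_B6 and 219.5, 229, 222 and 158 CPM in KO_B6. Replicate 4 stayed near the wild types and the other 3 knockouts were higher, with a log2 fold change of 0.45 ± 0.13 (SE), adjusted p = 0.0087. It had 169.7 and 175 CPM in WT_FvB, and ran from 111 through a median of 126 to 163 CPM in Tg_FvB. In Tg_FvB it was lower in each library than in either WT_FvB library, which did not pass the test (log2 -0.41 ± 0.13 (SE), adjusted p = 0.12). Kcnip2, best known from the heart's transient outward current, had 2.78, 2.61 and 2.74 CPM in WT_B6 and 0.602, 0.603, 0.518 and 1.01 CPM in KO_B6. It was 3.89-fold lower (log2 -1.96 ± 0.32 (SE), adjusted p = 0.00023). It had 0.345 and 0.957 CPM in WT_FvB, and ran from 0.973 through a median of 1.57 to 2.45 CPM in Tg_FvB, and the WT_FvB libraries stood far from each other. Kcnip1 had 8.78, 8.31 and 8.05 CPM in WT_B6 and 5.81, 9.01, 8.49 and 10.1 CPM in KO_B6. The B6 groups overlapped and the log2 fold change was 0.00 ± 0.28 (SE), adjusted p = 0.996. In the mixed background it was the only described gene called higher in Tg_FvB, with 1.87 and 1.5 CPM in WT_FvB, and ran from 2.14 through a median of 5.52 to 8.79 CPM in Tg_FvB. The groups did not overlap, and the log2 fold change was 1.75 ± 0.38 (SE), adjusted p = 0.036. Even the highest transgenic library, at 8.79 CPM, only matched the WT_B6 level. The effects differed by 0.86 for Kcnip3 (adjusted p = 0.0025), -3.30 for Kcnip2 (adjusted p = 0.00056) and -1.74 for Kcnip1 (adjusted p = 0.0096). Without WT_FvB replicate 2 the last had an adjusted p of 0.0637.

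KCNQ channels carry the M current that damps excitability. Kcnq3 fell in KO_B6 and Kcnq5 did not pass the test. Kcnq3 had 5.02, 5.15 and 6.25 CPM in WT_B6 and 1.88, 2.41, 2.1 and 2.61 CPM in KO_B6. It was 2.42-fold lower, with no overlap (log2 -1.28 ± 0.22 (SE), adjusted p = 0.00029). It had 3.3 and 3.74 CPM in WT_FvB, and ran from 2.11 through a median of 2.53 to 4.17 CPM in Tg_FvB. Kcnq5 had 7.53, 8.51 and 7.54 CPM in WT_B6 and 8.09, 10.7, 11.2 and 10.05 CPM in KO_B6. These groups overlapped (log2 0.35 ± 0.17 (SE), adjusted p = 0.11). Kcnq5 had 18 and 13.8 CPM in WT_FvB, and ran from 8.28 through a median of 11.1 to 15.2 CPM in Tg_FvB. The 2 effects differed by -0.95 for Kcnq3 (adjusted p = 0.035) and 0.85 for Kcnq5 (adjusted p = 0.014). Both calls were lost without WT_FvB replicate 1, and that of Kcnq3 also without WT_FvB replicate 2, WT_B6 replicate 4, KO_B6 replicate 3 or Tg_FvB replicate 3, with adjusted p up to 0.135 for Kcnq3 and 0.124 for Kcnq5.

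The EAG family includes Kcnh2, the channel that repolarizes the heart muscle cell. Kcnh2 and Kcnh4 rose and Kcnh7 fell. Kcnh7 had 5.84, 6.19 and 6.15 CPM in WT_B6 and 0.628, 1.05, 1.06 and 1.42 CPM in KO_B6. The knockouts had at most 1.42 CPM, and the log2 fold change was -2.52 ± 0.32 (SE), adjusted p = 3.6e-05. Its exons share 696 bases with Gca on the other strand. It had 2.12 and 1.91 CPM in WT_FvB, and ran from 1.27 through a median of 2.49 to 4.75 CPM in Tg_FvB. WT_FvB was lower than WT_B6 as well (log2 -1.59 ± 0.40 (SE), adjusted p = 0.0048). Kcnh2 had 10.3, 9.97 and 10.4 CPM in WT_B6 and 15.8, 17.3, 18 and 16.5 CPM in KO_B6. Each knockout was higher (log2 0.72 ± 0.19 (SE), adjusted p = 0.0054). It had 26.1 and 25.7 CPM in WT_FvB, and ran from 12.502 through a median of 18.4 to 28.7 CPM in Tg_FvB. Kcnh4 had 0.545, 0.489 and 0.58 CPM in WT_B6 and 0.811, 1.05, 1.6 and 1.89 CPM in KO_B6. Its fold change rests on low counts (log2 1.32 ± 0.37 (SE), adjusted p = 0.0089). Kcnh4 had 1.97 and 2.32 CPM in WT_FvB, and ran from 0.825 through a median of 1.21 to 2.37 CPM in Tg_FvB. The effects differed by -2.90 for Kcnh7 (adjusted p = 0.00073), 1.18 for Kcnh2 (adjusted p = 0.0035) and 2.03 for Kcnh4 (adjusted p = 0.0064).

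The silent Kv subunits form no channel alone and act by joining other Kv subunits. Kcnf1 and Kcng1 rose in KO_B6, while Kcnv1 did not pass the test. Kcnf1 had 2.62, 2.22 and 2.64 CPM in WT_B6 and 5.44, 7.59, 6.61 and 5.25 CPM in KO_B6. The groups stood apart (log2 1.32 ± 0.21 (SE), adjusted p = 0.00016). It had 4.38 and 3.87 CPM in WT_FvB, and ran from 1.87 through a median of 2.92 to 3.38 CPM in Tg_FvB. Kcng1 had 1.85, 1.63 and 1.74 CPM in WT_B6 and 3.06, 4.49, 4.98 and 5.63 CPM in KO_B6. The log2 fold change was 1.39 ± 0.25 (SE), adjusted p = 0.00041. It had 2.17 and 1.5 CPM in WT_FvB, and ran from 1.54 through a median of 1.86 to 2.85 CPM in Tg_FvB. The effects differed for Kcnf1 by 1.94 (adjusted p = 0.00044) and for Kcng1 by 1.27 (adjusted p = 0.015), the latter not without WT_FvB replicate 1 (adjusted p = 0.131). Kcnv1 had 16.1, 13.9 and 13.7 CPM in WT_B6 and 17.9, 14.7, 16.7 and 13.1 CPM in KO_B6. The groups overlapped. Kcnv1 had 8.32 and 7.38 CPM in WT_FvB, and ran from 6 through a median of 6.75 to 10.3 CPM in Tg_FvB, below both B6 groups in every library.

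**Figure D3:**
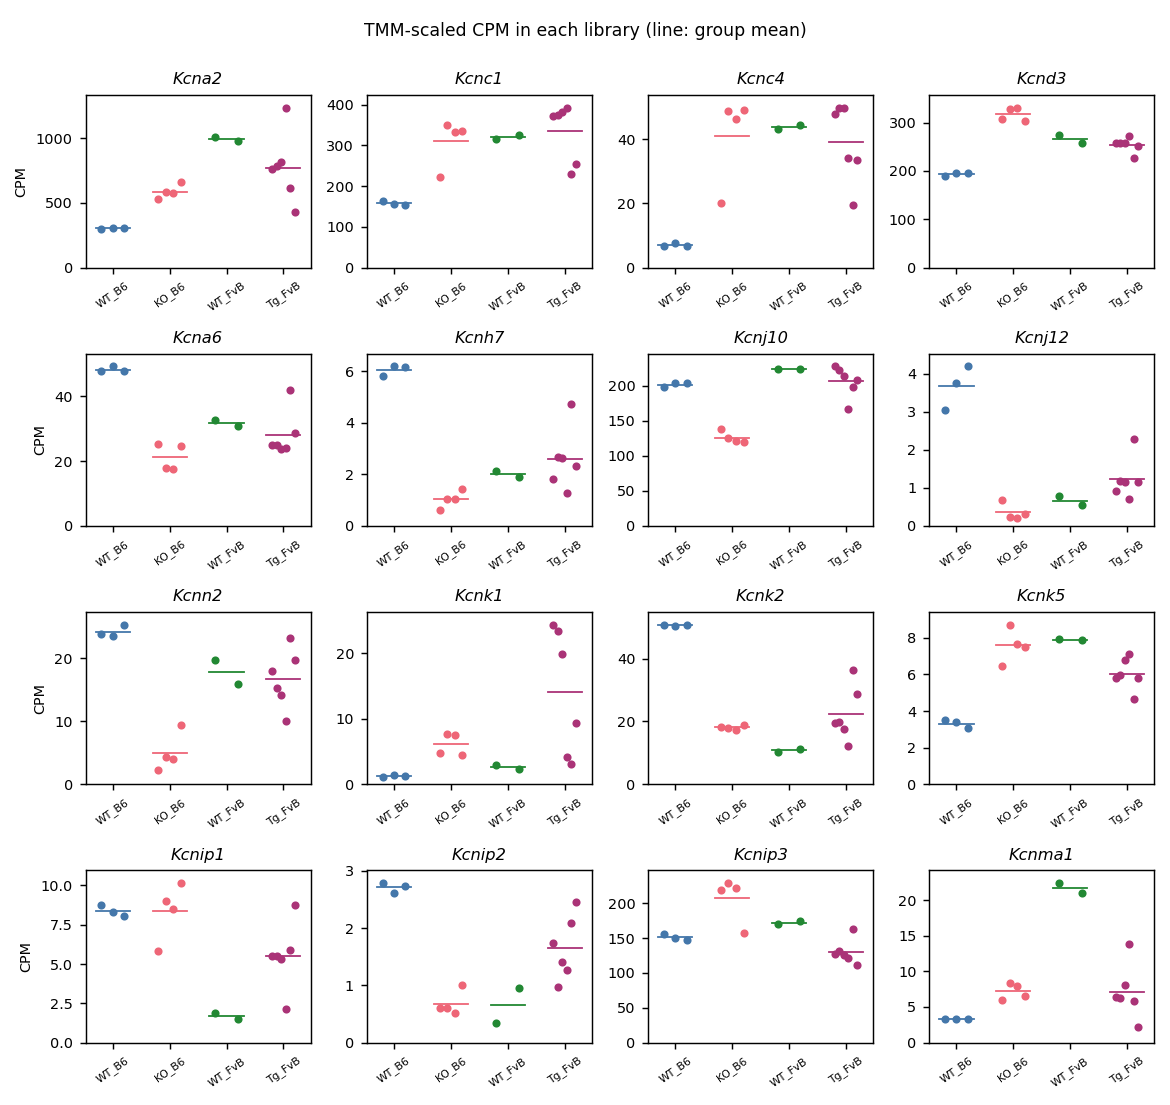
TMM-scaled CPM of 16 of the genes in each library, with group means as lines and each axis starting at 0. The 3 WT_B6 points lie together in each panel. KO_B6 points lie above them for Kcnc4 (20.3 to 49.1 against 6.83 to 7.72 CPM) and below them for Kcnj10 and Kcnk2.

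Inward rectifiers hold the resting potential and, in glia, take up potassium. Of the 8 described members 4 rose and 4 fell in KO_B6. Kcnj10, the glial pore, had 198, 204 and 204 CPM in WT_B6 and 139, 126, 121 and 119 CPM in KO_B6. It was lower in every knockout, with a log2 fold change of -0.68 ± 0.09 (SE), adjusted p = 3.7e-05. It had 225 and 224 CPM in WT_FvB, and ran from 167 through a median of 212 to 228 CPM in Tg_FvB. Kcnj16, which assembles with Kcnj10 into a pH-sensitive channel, had 71.3, 77.2 and 77.4 CPM in WT_B6 and 97.8, 115, 118 and 101 CPM in KO_B6. This partner was higher in every knockout (log2 0.52 ± 0.09 (SE), adjusted p = 0.0003). It had 129.7 and 126 CPM in WT_FvB, and ran from 95.7 through a median of 116 to 123 CPM in Tg_FvB. Against 24.8% higher and 20.9% lower of all genes tested, 0 of 10 astrocyte marker genes were higher and 7 lower in KO_B6. Their summed level ran from 1270 to 1272 CPM in WT_B6, 915 to 999 CPM in KO_B6, 2205 to 2220 CPM in WT_FvB and 1316 to 1642 CPM in Tg_FvB. Its part in the fall of Kcnj10 was not tested. In bulk RNA, fewer cells of a type and less RNA per cell cannot be told apart.

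Among the strong rectifiers Kcnj12 (chromosome 11) had 3.05, 3.75 and 4.19 CPM in WT_B6 and 0.68, 0.231, 0.197 and 0.32 CPM in KO_B6. The fall was 10.5-fold, or -3.39 ± 0.38 (SE), adjusted p = 1.6e-05, and no knockout reached 1 CPM. It had 0.788 and 0.547 CPM in WT_FvB, and ran from 0.712 through a median of 1.15 to 2.29 CPM in Tg_FvB, and Tg_FvB replicate 5 was the highest. The related Kcnj2 had 4.96, 5.54 and 4.41 CPM in WT_B6 and 6.28, 7.29, 8.61 and 8.91 CPM in KO_B6. It rose (log2 0.65 ± 0.21 (SE), adjusted p = 0.02). It had 11 and 12.9 CPM in WT_FvB, and ran from 6.75 through a median of 11.6 to 12.9 CPM in Tg_FvB. Kcnj14 had 0.327, 0.359 and 0.612 CPM in WT_B6 and 0.707, 0.834, 1.09 and 0.848 CPM in KO_B6. The log2 fold change of 0.96 ± 0.36 (SE), adjusted p = 0.041, rests on levels near 1 CPM. It had 1.13 and 1.5 CPM in WT_FvB, and ran from 0.461 through a median of 0.813 to 1.66 CPM in Tg_FvB. Kcnj14 reached a mean of 1 CPM in WT_FvB alone and is among the described genes through that group. Its calls are therefore given as a description. The effects differed by -4.30 for Kcnj12 (adjusted p = 0.00031), -0.56 for Kcnj10 (adjusted p = 0.0039), 0.69 for Kcnj16 (adjusted p = 0.0012), 0.83 for Kcnj2 (adjusted p = 0.04) and 1.64 for Kcnj14 (adjusted p = 0.02). Leaving out 1 library ended this call for Kcnj2 (9 libraries, WT_B6 and WT_FvB among them, adjusted p up to 0.176) and for Kcnj14 (WT_B6 replicates 1 and 2 and WT_FvB replicate 2, up to 0.116). The G-protein-gated Kcnj9 (log2 -0.64) and the pore of ATP-sensitive channels Kcnj11 (log2 -0.72) fell, while Kcnj4 (log2 0.67, adjusted p = 0.047) was called higher with overlapping groups and kept the call under 1 of 14 alternatives.

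Tandem-pore channels carry background current. Of 6 described members Kcnk1 and Kcnk5 rose, Kcnk2, Kcnk10 and Kcnk13 fell, and Kcnk3 did not pass the test. Kcnk2, a stretch- and lipid-gated channel, had 50.6, 50.3 and 50.8 CPM in WT_B6 and 18.2, 17.8, 17.4 and 19 CPM in KO_B6. Both B6 groups were tight and far apart (log2 -1.48 ± 0.24 (SE), adjusted p = 0.00018). It had 10.4 and 11.3 CPM in WT_FvB, and ran from 12.2 through a median of 19.6 to 36.3 CPM in Tg_FvB. WT_FvB was lower still than KO_B6. The rise in Tg_FvB missed the threshold (log2 1.06 ± 0.29 (SE), adjusted p = 0.074) and passed it without replicates 5 and 6 (adjusted p = 0.0201). Its close relative Kcnk10 had 7.85, 7.92 and 8.41 CPM in WT_B6 and 5.89, 6.17, 6.27 and 5.1 CPM in KO_B6. It fell less (log2 -0.46 ± 0.11 (SE), adjusted p = 0.0032). It had 4.58 and 4.1 CPM in WT_FvB, and ran from 5.3 through a median of 5.97 to 6.92 CPM in Tg_FvB. Kcnk5, an alkaline-activated channel, had 3.49, 3.39 and 3.06 CPM in WT_B6 and 6.46, 8.71, 7.67 and 7.5 CPM in KO_B6. It was 2.3-fold higher (log2 1.20 ± 0.14 (SE), adjusted p = 2.8e-05). It had 7.93 and 7.88 CPM in WT_FvB, and ran from 4.67 through a median of 5.88 to 7.12 CPM in Tg_FvB. Kcnk1 had 1.09, 1.47 and 1.19 CPM in WT_B6 and 4.82, 7.61, 7.45 and 4.43 CPM in KO_B6. The log2 fold change was 2.26 ± 0.66 (SE), adjusted p = 0.011. It had 3 and 2.32 CPM in WT_FvB, and ran from 3.13 through a median of 14.6 to 24.3 CPM in Tg_FvB. Replicates 1 to 3 had 19.9 to 24.3 CPM and the others 3.13 to 9.42 CPM, and the difference did not pass the test (log2 2.41 ± 0.71 (SE), adjusted p = 0.094). It passed without replicates 5 and 6 (adjusted p = 0.0136). The call was also gained without replicate 4 or replicate 5 alone, with DESeq2 and with a replicate block. The difference of the knockout and transgene effects on Kcnk1 did not pass the test (-0.15 ± 0.95, adjusted p = 0.92). For Kcnk2, Kcnk10 and Kcnk5 the effects differed by -2.54 (adjusted p = 0.00038), -0.94 (adjusted p = 0.00098) and 1.60 (adjusted p = 0.0002). Exons of Kcnk2 share 604 bases with A430027H14Rik on the other strand.

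Calcium-activated channels of small conductance (SK) are gated by bound calmodulin. Kcnn1, Kcnn2 and Kcnn3 fell in KO_B6. Kcnn2 had 23.8, 23.5 and 25.3 CPM in WT_B6 and 2.28, 4.33, 3.95 and 9.41 CPM in KO_B6. It was 4.77-fold lower (log2 -2.25 ± 0.34 (SE), adjusted p = 0.00012). It had 19.7 and 15.9 CPM in WT_FvB, and ran from 10.1 through a median of 16.6 to 23.2 CPM in Tg_FvB, so every FvB library was above every knockout. Kcnn3 had 33.5, 33.6 and 31.3 CPM in WT_B6 and 18.1, 18.1, 18.1 and 29.4 CPM in KO_B6. Knockout replicates 1 to 3 had the same level and replicate 4 lay close to the wild types (log2 -0.64 ± 0.14 (SE), adjusted p = 0.0018). It had 31.9 and 28.3 CPM in WT_FvB, and ran from 32.7 through a median of 36.1 to 37.3 CPM in Tg_FvB. Kcnn1 had 4.47, 3.94 and 3.45 CPM in WT_B6 and 2.64, 2.02, 2.02 and 2.19 CPM in KO_B6. Again the groups stood apart (log2 -0.83 ± 0.14 (SE), adjusted p = 0.0003). It had 5.32 and 4.92 CPM in WT_FvB, and ran from 4.35 through a median of 5.17 to 5.72 CPM in Tg_FvB. Background made no called difference between the wild types for any of the 4. The effects differed by -2.17 for Kcnn2 (adjusted p = 0.0047), -0.89 for Kcnn3 (adjusted p = 0.0047) and -0.82 for Kcnn1 (adjusted p = 0.0069). Kcnn4, of intermediate conductance, was low, at 0.816 ± 0.0459 CPM in WT_B6 and 1.42 ± 0.406 CPM in KO_B6 (SD). It reached 1 CPM in KO_B6 alone and is among the described genes through that group, so its call as higher is given as a description.

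The large-conductance channel Kcnma1 (Slo family, chromosome 14, 1.62 Mb from Kat6b) moved in both experiments. It had 3.33, 3.32 and 3.38 CPM in WT_B6 and 6.05, 8.37, 7.92 and 6.58 CPM in KO_B6. The rise was 2.16-fold (log2 1.11 ± 0.39 (SE), adjusted p = 0.029). Kcnma1 had 22.4 and 21 CPM in WT_FvB, and ran from 2.21 through a median of 6.33 to 13.8 CPM in Tg_FvB. Every transgenic library was below both wild types (log2 -1.66 ± 0.36 (SE), adjusted p = 0.036). The effects differed by 2.77 (adjusted p = 0.0015), and WT_FvB exceeded WT_B6 by a log2 of 2.69 ± 0.44 (SE), adjusted p = 0.0003. Exons of Kcnma1 share 1016 bases with 4930519K11Rik on the other strand. The sodium-activated Kcnt1 had 1.58, 1.4 and 1.61 CPM in WT_B6 and 1.62, 2.15, 1.58 and 2.46 CPM in KO_B6. The B6 groups overlapped. Kcnt1 had 6.45 and 7.25 CPM in WT_FvB, and ran from 1.82 through a median of 3.78 to 7.6 CPM in Tg_FvB. Its largest difference was between the wild types (log2 2.16 ± 0.41 (SE), adjusted p = 0.00079). Of the BK beta genes only Kcnmb4, the neuronal one, was described, with 47.1, 43.1 and 44.8 CPM in WT_B6 and 47.6, 31.4, 30.2 and 25.4 CPM in KO_B6. Knockout replicate 1 was as high as the wild types and the other 3 were lower (log2 -0.42 ± 0.22 (SE), adjusted p = 0.14). It had 17.7 and 15.6 CPM in WT_FvB, and ran from 14.1 through a median of 20.8 to 31.8 CPM in Tg_FvB. Its antisense transcript Kcnmb4os2, with 693 shared exonic bases, had 6.22, 5.31 and 5.35 CPM in WT_B6 and 5.81, 4.15, 3.58 and 3.26 CPM in KO_B6. Kcnmb4os2 had 2.07 and 1.6 CPM in WT_FvB, and ran from 1.5 through a median of 2.58 to 2.88 CPM in Tg_FvB, and like Kcnmb4 it was lower in WT_FvB than in WT_B6 (log2 -1.62 and -1.43).

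Other accessory subunits were few. Kcne1l (chromosome X), a KCNE family member, had 17.6, 16.8 and 17.4 CPM in WT_B6 and 9.27, 10.7, 10.8 and 3.74 CPM in KO_B6. It fell, most in replicate 4 (log2 -1.0 ± 0.26 (SE), adjusted p = 0.0052). It had 17.5 and 16.4 CPM in WT_FvB, and ran from 8.15 through a median of 10.2 to 12.7 CPM in Tg_FvB. All 6 transgenic libraries were below both wild types, without passing the test (log2 -0.73 ± 0.27 (SE), adjusted p = 0.18). Kcnab2, a Kv beta subunit that chaperones Kv1 channels, had 13.5, 12.8 and 13.1 CPM in WT_B6 and 15.4, 14.6, 14.2 and 12.8 CPM in KO_B6. These groups overlapped. Kcnab2 had 19.9 and 18.4 CPM in WT_FvB, and ran from 10.9 through a median of 15 to 19.3 CPM in Tg_FvB. Kcnab3 had 4.74, 4.56 and 5.12 CPM in WT_B6 and 4.5, 5.27, 4.84 and 5.28 CPM in KO_B6. No difference passed the test there (log2 0.05 ± 0.15 (SE), adjusted p = 0.82). Kcnab3 had 5.61 and 4.1 CPM in WT_FvB, and ran from 3.8 through a median of 4.49 to 5.63 CPM in Tg_FvB.

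Gain of Kat6b went with few changes. In Tg_FvB against WT_FvB, Kcnip1 was higher, Kcnma1, Kcnk13 and Kcnj11 were lower, and 46 of the 50 described genes did not pass the test. That is 4 of 61 tested genes (6.56%), against 1.85% of all genes tested (0.688% higher and 1.17% lower). An unadjusted p under 0.05 was found for 18 of the 61. The groups did not overlap for 15 of the 50 genes (30%), against 16% of all genes. Kcnk13, a tandem-pore channel known in the adult brain from microglia, had 2.02 and 1.96 CPM in WT_FvB, and ran from 0.388 through a median of 0.653 to 1 CPM in Tg_FvB. It was 3.12-fold lower (log2 -1.64 ± 0.33 (SE), adjusted p = 0.028). It was low in B6 as well, at 1.05 ± 0.326 CPM in WT_B6 and 0.48 ± 0.168 CPM in KO_B6 (SD), and fell there too (log2 -1.09). The 8 microglia markers summed to at most 0.456 CPM in any library, with C1qa at 0 in all. Kcnj11 had 1.58 and 1.46 CPM in WT_FvB, and ran from 0.723 through a median of 0.873 to 0.959 CPM in Tg_FvB. All its transgenic libraries were below 1 CPM (log2 -0.82 ± 0.18 (SE), adjusted p = 0.038).

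In litter 844, the only one with both genotypes, the 2 transgenic libraries lay on the called side of both wild types for each of the 4 genes. Most described genes that were not called were separated in this comparison too. The 4 genes were called from these same libraries, and the libraries of each genotype in this litter were a near-identical pair. The comparison therefore describes the calls and is no separate support. Without Tg_FvB replicates 5 and 6 all 4 kept the call (adjusted p = 0.029 for Kcnip1, 0.0067 for Kcnma1, 0.031 for Kcnj11 and 0.013 for Kcnk13), and Kcnip3, Kcnk2 and Kcnk1 were added. The count of 4 rests on few libraries: it was 0 without either WT_FvB library, without Tg_FvB replicate 1, 2 or 3, with litter as a covariate, with the mixed-background libraries alone and with near-identical libraries summed. It was 13 without Tg_FvB replicate 4, 7 without replicate 5 and 4 without replicate 6. With these 8 single-library fits the adjusted p reached 0.41 for Kcnip1, 0.369 for Kcnma1, 0.408 for Kcnj11 and 0.334 for Kcnk13. Of 10 astrocyte markers 5 were lower in Tg_FvB and 0 higher, against 1.17% of all genes lower. Of 10 markers each, 2 neuronal, 2 oligodendrocyte lineage and 1 progenitor marker were higher and 0 lower, against 0.688% of all genes higher. The part of these markers in the transgenic results was not tested.

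The wild types of the 2 backgrounds were compared as well, and the share of called channel genes was near that of all genes. In WT_FvB against WT_B6, 19 of the 50 described genes were higher, 13 lower and 18 not called. Over the 61 tested genes that is 52.5%, against 48.9% of all genes (25.4% higher and 23.5% lower), and 0 were called with near-identical libraries summed, where 24 had an unadjusted p under 0.05. The largest rises were Kcnma1 (log2 2.69) and Kcnc4 (log2 2.61), and the largest falls Kcnj12 (log2 -2.46) and Kcnip1 (log2 -2.31). Markers differed too: of 10 each, 8 astrocyte markers were higher and 0 lower in WT_FvB, while 6 progenitor, 5 neuronal and 6 oligodendrocyte lineage markers were lower and 1, 1 and 2 higher. Their part in the channel differences was not tested. Both this comparison and the knockout comparison use the WT_B6 libraries, so they are not independent. Kcnc4 had 2.52 in the knockout and 2.61 between backgrounds, Kcnj12 -3.39 and -2.46, and Kcnk2 -1.48 and -2.22. Kcnn2 had -2.25 and -0.44, and Kcnip1 0.00 and -2.31.

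The knockout effect was also compared directly with the transgene effect. The difference passed the test for 30 of the 50 described genes, 17 with the knockout effect above the transgene effect and 13 below. With Kcnk4 and Kcng2, which stayed below 1 CPM, it passed for 32 of 61 (52.5%), against 37.3% of all genes (19.5% above and 17.8% below). The largest differences were -4.30 for Kcnj12, -3.30 for Kcnip2 and -2.90 for Kcnh7 on one side, and 2.77 for Kcnma1 and 2.68 for Kcnc4 on the other. With near-identical libraries summed 0 were called, while 18 of the 61 had an unadjusted p under 0.05. Leaving out 1 library gave 24 to 39 called genes. The tandem-pore gene Kcnk4 had 0.382, 0.391 and 0.451 CPM in WT_B6 and 0.968, 0.763, 0.493 and 0.848 CPM in KO_B6. It had 0.64 and 0.957 CPM in WT_FvB, and ran from 0.459 through a median of 0.531 to 0.95 CPM in Tg_FvB. The silent subunit Kcng2 had 0.218, 0.261 and 0.0967 CPM in WT_B6 and 0.497, 0.408, 0.271 and 0.288 CPM in KO_B6. It had 0.64 and 0.41 CPM in WT_FvB, and ran from 0.0486 through a median of 0.155 to 0.475 CPM in Tg_FvB. Both rest on few counts, and their differences of 1.31 (adjusted p = 0.036) and 2.45 (adjusted p = 0.019) were lost without 1 library, among them WT_FvB replicate 2 for Kcnk4 and WT_FvB replicate 1 for Kcng2 (adjusted p up to 0.234 and 0.119).

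Summed by subfamily, the described and undescribed members together gave a level for each channel type. These sums are descriptions without a test, and 1 gene made up much of most of them in WT_B6: Kcnip3 87.5% of KChIP, Kcna2 72.3% of Kv1, Kcnc1 71.7% of Kv3, Kcnk2 68.2% of K2P, Kcnn2 67.5% of SK and Kcnj10 61.5% of Kir. Kv3 genes had 23.4 CPM per kilobase in WT_B6 and 50.9 in KO_B6, 2.18 times as much, and stood at 52.3 in WT_FvB and 51.9 in Tg_FvB. Kv1 genes had 36.2, 58.8, 94.7 and 75.0 in the same order of groups, Kv4 genes 63.4, 75.5, 60.1 and 63.1, and KChIP genes 53.6, 68.5, 55.4 and 44.8. The KChIP sums of the B6 groups overlapped, with 54.4 in the lowest knockout and 55.1 in the highest wild type. SK genes had 17.5 in WT_B6 and 6.44 in KO_B6, 2.72 times less, and 14.3 and 14.5 in the FvB groups. The weight of Kcnn2 in this sum rests on a deposited length shorter than the 7468 bases its exons cover in GENCODE vM21. By CPM alone Kcnn3 stood above Kcnn2 in each WT_B6 library, and Kcnn3 fell less in KO_B6. K2P genes had 18.7, 13.1, 11.1 and 17.4, so their order differed from that of the Kv sums. Kir genes, where rises and falls met, had 60.7, 54.2, 78.4 and 71.2. BK beta, almost all of it Kcnmb4, had 44.8, 33.5, 16.6 and 22.7, and Slo genes 1.0, 1.52, 4.17 and 1.88. In WT_B6 the ranges over libraries were narrow. The sums of the KO_B6 libraries lay wholly above them for Kv1, Kv3, Kv4, silent Kv and Slo. They lay wholly below them for SK, K2P, Kir, KCNQ and KCNE.

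**Figure D4:**
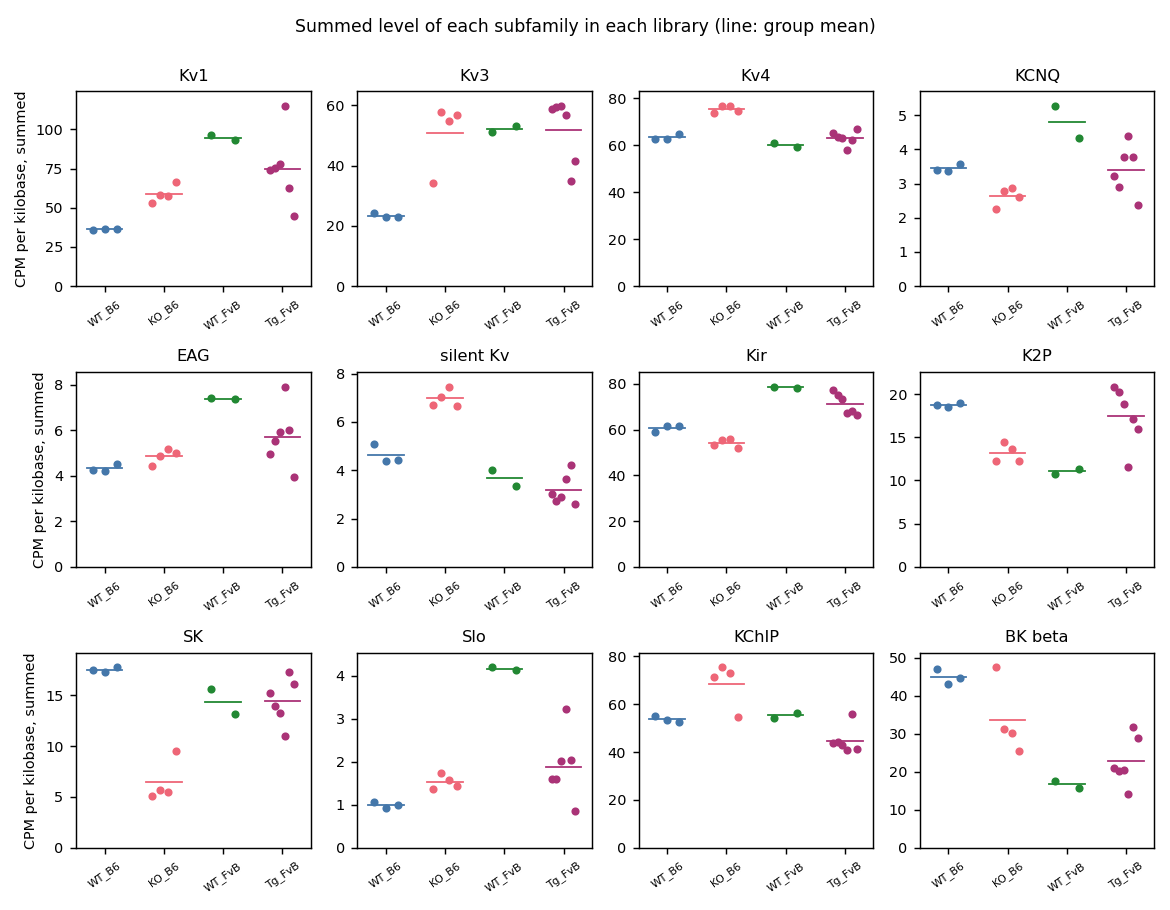
Summed CPM per kilobase of 12 subfamilies in each library, with group means as lines and each axis starting at 0. KO_B6 points lie above WT_B6 for Kv1, Kv3, Kv4, silent Kv and Slo and below for KCNQ, Kir, K2P and SK. The FvB groups are higher than WT_B6 for Kv1 and Kv3.

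The few pairs of described genes close together on a chromosome had like results in KO_B6. Among the 50 genes, 5 pairs lay less than 100 kb apart, 2 of them overlapping. Kcnj9 and Kcnj10 on chromosome 1, 11.9 kb apart, both fell, and Kcnj16 and Kcnj2 on chromosome 11, 38.2 kb apart, both rose. Kcna3 and Kcna2 on chromosome 3, 52.8 kb apart, both rose as well. The overlapping pair Kcnd3 and Kcnd3os rose, and Kcnmb4 and Kcnmb4os2 did not pass the test. Pairs were looked up after the values were known, and no test was made. The calls of Kcnj9 and Kcnj2 held under only 9 and 8 of 14 alternatives. Where exons overlap, reads of a pair cannot be told apart without strand.

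Partners of potassium channels and potassium transporters made a second list of 42 genes, of which 34 were tested. In KO_B6 10 were higher and 8 lower, or 52.9%, near the 45.8% of all genes tested. In Tg_FvB edgeR's test called 0 of the 34, with an unadjusted p under 0.05 for 4, against 1.85% of all genes called. The values that follow are from KO_B6 against WT_B6 and describe these genes, not the list. Sodium pumps build the potassium gradient. Their beta subunit Atp1b3 had a log2 fold change of 0.47 (adjusted p = 0.00019), while Atp1b2, the beta subunit typical of astroglia, had -0.59 (adjusted p = 0.00072). Cation-chloride cotransporters rose for Slc12a2 (0.65), Slc12a4 (0.52) and Slc12a5 (1.0). Of the Kv4 partners Dpp6 (-0.53) and Dpp10 (-1.54) fell. The related pacemaker channels Hcn2 (0.66) and Hcn3 (0.72) rose. The lysosomal channel Tmem175 (-0.46) and the reticular channel Tmem38b (-0.31) fell, the scaffold Dlg4 (0.41) and Calm2 (0.30) rose, and Akap5 (-0.35) fell. Lrrc55, an accessory subunit of Kcnma1 channels, rose too (log2 2.14, adjusted p = 0.028) but stayed far below 1 CPM. The repressor of neuronal genes Rest did not pass (log2 0.08, adjusted p = 0.68).

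Marker genes describe the cells in which these channels were counted. All 10 neural stem and progenitor markers exceeded 1 CPM, summing to 6888 to 10095 CPM in every library, and in KO_B6 1 was higher and 6 were lower. Neuronal markers summed to 1298 to 1308 CPM in WT_B6 and 1251 to 1351 CPM in KO_B6, with 2 of 10 higher and 2 lower. Map2 made up most of this sum, with means of 1061 CPM in WT_B6 and 1068 CPM in KO_B6. In the same order, Tubb3 (25.1 and 8.79 CPM) and Dcx (38.5 and 13.9 CPM) were lower. Snap25 (2.70 and 5.46 CPM) and Neurod1 (0.101 and 0.687 CPM) were higher. Oligodendrocyte lineage markers summed to 3497 to 3692 CPM in WT_B6 and 3028 to 3546 CPM in KO_B6, with 1 higher and 4 lower. For comparison, 24.8% of all genes tested were higher in KO_B6 and 20.9% lower. Endothelial markers stayed at or under 4.01 CPM in sum, with 2 of 8 higher and 0 lower in KO_B6. The 8 pericyte and mural markers summed to 429 to 470 CPM in WT_B6 and 305 to 354 CPM in KO_B6, with 1 higher and 1 lower. Most of that sum was Notch3 (means of 288 and 158 CPM) and Cspg4 (151 and 176 CPM). Cspg4 is also on the oligodendrocyte lineage list. The part of these marker shifts in the channel results was not tested.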

How the data were processed

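Per the labels, libraries came from a TruSeq kit (RNA prep, v2) and were read as 66 bp paired ends. The authors deposited raw counts per gene with a gene length in bases, and the submitters' processing notes name bcl2fastq, featureCounts and build mm10. Neither aligner, annotation nor strandedness is given in the sources used here. Totals over named genes were 12336303 to 62819028, and 917 unnamed entries (0.450% to 0.545% of counts) were left out.

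Groups follow the genotype and background fields. Titles of Tg_FvB samples say knockout, and litter and embryo numbers of WT_FvB replicate 2 and WT_B6 replicate 1 are alike. All 15 libraries entered 1 edgeR 4.0.16 model (R 4.3.3) with 1 coefficient per group, TMM scaling, filterByExpr at a minimum count of 10 (15261 genes kept, 11002 removed) and the quasi-likelihood F-test with 11 residual degrees of freedom. A gene was called at a Benjamini-Hochberg adjusted p under 0.05 over all genes. Standard errors were derived from the F statistic.

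Values in every library were given for called genes with at least 5 CPM and no overlap, for the 2 highest genes per kilobase of each subfamily and for genes with a called difference of effects. A few genes are not reported here by name, but stay in the counts, fits and sums. The genes, lists and tests were chosen with earlier results of these data known. Alternatives were RLE size factors, no filter, DESeq2 1.42.0, a replicate block, litter as a covariate, fits of the groups compared alone, near-identical libraries summed (coefficient of variation under 0.05) and fits without single libraries. Replicate numbers did not pair samples: residual correlations were -0.012, 0.0091 and -0.017 in B6 and 0.135 and -0.020 in FvB.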

Additional observations from a re-analysis of the deposited data

Results flagged for a closer look

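A library stood apart from the rest of its group in 10 of 100 gene and group combinations with 4 to 10 libraries, where chance gives about 1 in 20 for independent libraries. KO_B6 replicates 2 and 3 and Tg_FvB replicates 1 to 3 were nearly identical, so the libraries of these groups are not independent in this sense. KO_B6 replicate 4 had 158 CPM of Kcnip3 (others 219.5 to 229), 147 CPM of Kcnd2 (others 139 to 139.5) and 29.4 CPM of Kcnn3 (others 18.1 to 18.1). KO_B6 replicate 1 had 221 CPM of Kcnc1 (others 334 to 351), 20.3 CPM of Kcnc4 (others 46.3 to 49.1) and 6.62 CPM of Kcnd3os (others 3.73 to 4.22). Tg_FvB replicate 5 had 42.1 CPM of Kcna6 (others 23.9 to 28.7), 10.3 CPM of Kcnv1 (others 6.00 to 7.35) and 2.29 CPM of Kcnj12 (others 0.712 to 1.17). Tg_FvB replicate 4 had 1.66 CPM of Kcnj14 (others 0.461 to 0.865). Without KO_B6 replicate 1 or 4 the comparison of KO_B6 with WT_B6 called 35 and 31 genes, against 35 with all libraries.

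The knockout and transgene effects differed by the interaction test of edgeR for 32 genes. The knockout effect lay above the transgene effect, with these differences on the log2 scale: Kcnma1 2.77, Kcnc4 2.68, Kcng2 2.45, Kcnh4 2.03, Kcnf1 1.94, Kcnj14 1.64, Kcnk5 1.60, Kcna3 1.44, Kcna2 1.32, Kcnk4 1.31, Kcng1 1.27, Kcnh2 1.18, Kcnd3os 1.06, Kcnc1 0.91, Kcnip3 0.86, Kcnq5 0.85, Kcnj2 0.83, Kcnd3 0.78, Kcnj16 0.69. It lay below for Kcnj12 -4.30, Kcnip2 -3.30, Kcnh7 -2.90, Kcnk2 -2.54, Kcnn2 -2.17, Kcnip1 -1.74, Kcna6 -1.01, Kcnq3 -0.95, Kcnk10 -0.94, Kcnn3 -0.89, Kcnn1 -0.82, Kcnj10 -0.56, Kcnd2 -0.49. Adjusted p ran from 0.00011 to 0.04. The knockout was studied on C57BL/6 and the transgene on the mixed background, and which of the 2 a difference follows cannot be told apart. With near-identical libraries summed, 0 of these differences were called, and 18 of the 61 tested genes had an unadjusted p under 0.05.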

How the results depend on the processing

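No called gene changed direction under any alternative. The knockout count of 35 called genes became 0 with near-identical libraries summed (23 with an unadjusted p under 0.05, 5 genes called in the whole table), where 9 profiles leave 5 residual degrees of freedom. It was 27 with litter as a covariate, 32 with DESeq2 and 27 to 35 without single libraries. The transgenic count of 4 became 0 with litter as a covariate, 0 with only the mixed-background groups and 0 with summed libraries (17, 16 and 6 with an unadjusted p under 0.05), 7 with DESeq2, 7 without Tg_FvB replicates 5 and 6, and 0 to 13 without single libraries. The background count of 32 became 0 with summed libraries (24 with an unadjusted p under 0.05) and was 26 to 30 without single libraries. The count of 32 differing effects became 0 with summed libraries (18) and was 24 to 39 without single libraries. A replicate block, with 3 residual degrees of freedom, gave 37, 13 and 38 called genes for the knockout, the transgene and their difference, but the numbers share no source and their residuals did not correlate in every pair. It was not run between the backgrounds, whose libraries share no pairing. Over single genes, 630 knockout values stayed on their side of the threshold, 89 fell out of the call and 9 gained it, and 768, 35 and 29 did so for the transgene. Depth limits the lowest genes: Tg_FvB replicate 4 held 12336303 counts in all.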
